A study of Mus musculus with 15 samples.

Results

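The respiratory chain of the ileum was described from 69 genes whose names match the patterns for mitochondrially encoded transcripts (mt-), for nuclear subunits of complexes I to IV and the ATP synthase (Nduf without the Ndufaf assembly factors, Sdha to Sdhd, Uqcr, Cyc1, Cycs, Cox and Atp5) and, through the Cox pattern, for some complex IV assembly factors. They are 58 nuclear and 11 mitochondrially encoded genes among the 4178 genes of the deposited table. The tissue was whole ileum, the last stretch of the small intestine, from adult C57BL/6 mice that had been raised germ-free, that is, without any microbes. One group received Ruminococcus gnavus (RG), a gut commensal of the Clostridia class, a second received LGG, the probiotic strain Lacticaseibacillus rhamnosus GG, and the controls received sterile phosphate-buffered saline (PBS). Each mouse was given 200 µl by gavage and its ileum was taken 21 days later, with 5 mice in each of the 3 groups and 1 library per mouse, and PBS mice received no bacteria. Colonization was tested by PCR of DNA from faeces, per the labels. The labels give no sex, cage or litter. Cyc1, Cycs, Sdhb, Sdhc, Sdhd, mt-Co1 and mt-Nd3 were not analysed here.

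The respiratory chain passes electrons from NADH (at complex I) and from succinate (at complex II) through complexes III and IV to oxygen, and the proton gradient built on the way drives the ATP synthase. Its complexes, apart from complex II, are assembled from a few subunits transcribed from mitochondrial DNA as long shared precursors and from many subunits transcribed from nuclear genes and imported. Absorptive epithelium and muscle of the gut both rely on it, and bulk tissue mixes both, so that fewer cells of a type and less RNA per cell cannot be told apart.

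Values are TPM, which divide out transcript length and sum to the same total over all transcripts of a library. The listed genes held 48.0 to 66.1% of that total, and sequencing depth is unknown. Values by mouse are given below in the order of mice 1 to 5. Differences are on the log2(TPM + 1) scale with standard error (SE), and adjusted p-values are from limma over the 3530 genes tested, two-sided, with a threshold of 0.05. All 69 members were tested. With RG, 22.8% of all genes tested were higher than with PBS and 4.08% lower. With LGG, 54.7% were higher than with PBS and 16.5% lower, and between RG and LGG 8.19% were higher and 53.5% lower in RG. The listed genes left a gap in the LGG effect, since 3.12% of them lay between 0 and 0.5 and 2.38% between 0.5 and 1, while 55.5% were at 1 or more. The rule that chose the listed genes is not given in the sources used here. Under median-of-ratios scaling the median over all genes tested was 0.07 for RG and 0.40 for LGG against PBS, in place of 0.38 and 1.17, and the calls over all genes became 42 higher and 570 lower for RG, against 804 and 144 before, and 1729 higher and 1391 lower for LGG, against 1932 and 582 before. Between RG and LGG that scaling gave 1088 higher and 1057 lower calls in place of 289 and 1887.

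Summed levels of cell type markers differed between the groups. The 7 listed villus epithelium markers, of 10 chosen, summed to 5990 to 9025 TPM in RG mice, 17220 to 20030 TPM in LGG mice and 3294 to 5715 TPM in PBS mice, so the LGG mice did not overlap the others. Beside these sums, the median log2 difference from PBS over all genes tested was 1.17 with LGG and 0.38 with RG. All 5 Paneth cell markers were listed and summed to 16610 to 24510 TPM in RG mice, 450.5 to 4779 TPM in LGG mice and 21610 to 25340 TPM in PBS mice. The 6 listed smooth muscle markers, of 8, overlapped between groups, at 705 to 970 TPM in RG mice, 712 to 1772 TPM in LGG mice and 777 to 2622 TPM in PBS mice, with the highest value in PBS mouse 1. The 5 listed T cell markers, of 7, reached 196.6 TPM in RG mouse 2, where the median RG mouse had 13.5 TPM, and lay between 7.67 and 26.7 TPM in LGG mice and between 4.78 and 16.4 TPM in PBS mice. None of these markers was at 0 in any mouse. The only listed marker of B and plasma cells, Jchain, was at 84.9 to 333.9 TPM in RG mice, 18.9 to 126 TPM in LGG mice and 46.9 to 285.8 TPM in PBS mice, highest in RG mouse 2 and, among PBS mice, in PBS mouse 1. Genes of other organs stood out in single libraries. The kidney genes Kap and Umod were at 8.21 and 2.15 TPM in RG mouse 5, while Kap was at 0 and Umod at most 0.038 TPM in each of the other 14 mice. All 3 liver markers (Alb, Apoa2 and Ttr) were listed and summed to 87.8 to 163.7 TPM in RG mice, 64.0 to 138.7 TPM in LGG mice and 98.0 to 837.9 TPM in PBS mice, with the highest value in PBS mouse 1, where Alb was at 556.4 TPM, while PBS mice 2 to 5 had 56.7 to 157 TPM. Prss2, the only listed pancreas marker, reached 4.74 TPM in LGG mouse 4 and was at most 0.24 TPM in RG mice and 1.49 TPM in PBS mice. The heart gene Myh6 was at or near 0 in every mouse. The part of these cell types and organs in the differences below was not tested.

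With LGG many small nuclear subunits were lower than with PBS and a few large ones were higher. Fewer small ones were called lower with RG, and those calls depended on single mice. With RG, 22 of the 58 nuclear members fell and 0 rose relative to PBS, with a median log2 difference of -0.45 where all genes tested had 0.38. In the same comparison 4.08% of all genes tested fell and 22.8% rose. With LGG, 37 nuclear members fell, against a background of 16.5% falling, and 9 rose, against a background of 54.7% rising. Their median with LGG was -0.48, where all genes tested had 1.17. Without the filter on low values, all 4178 listed genes had a median of 0.48 with LGG and the nuclear members still -0.48. The LGG and PBS mice did not overlap for all of the 9 members that rose and for 35 of the 37 that fell, whereas the RG and PBS mice did not overlap for 7 of the 22 that fell with RG. How many of all genes tested had no overlap was not counted, so these numbers have no background beside them. The 2 contrasts share the PBS mice.

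**Figure D1:**
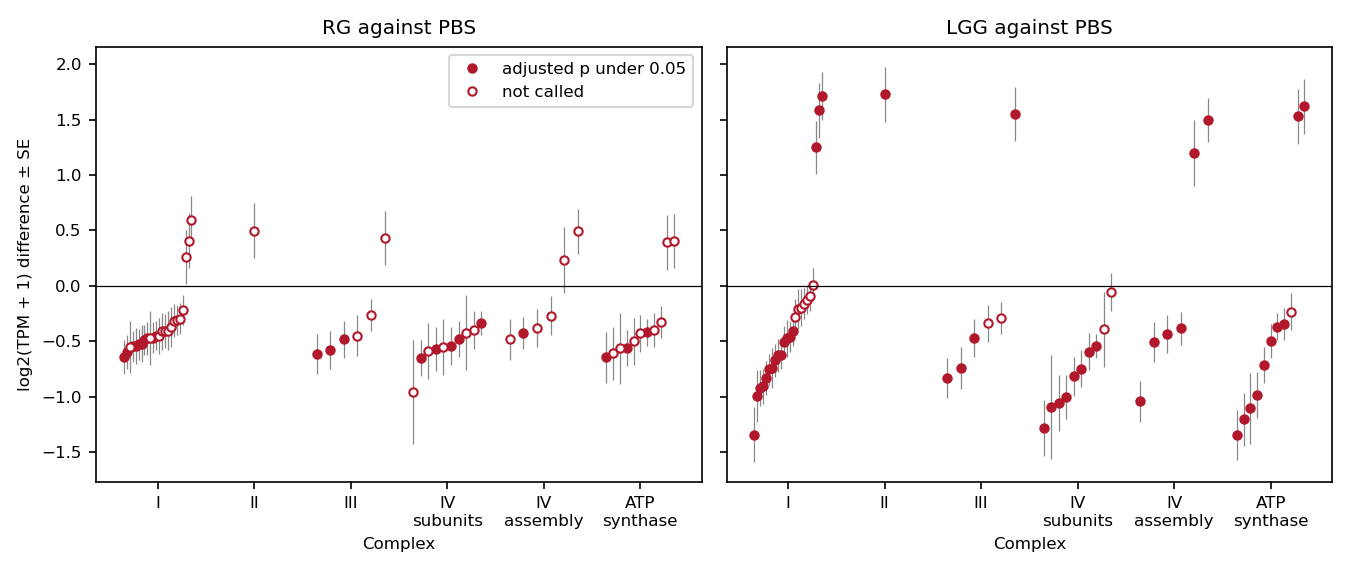
Log2(TPM + 1) difference (vertical axis) of each of the 58 nuclear members with its SE, for RG against PBS (left) and LGG against PBS (right), arranged by complex along the horizontal axis and by size within it; filled points passed limma's adjusted p of 0.05. With LGG every complex except the complex IV subunits holds members above 1, and every complex except complex II, of which Sdha alone is shown, holds members that fell.

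Complex I takes electrons from NADH and was represented by 24 nuclear members. As background for each complex, 4.08% of all genes tested fell and 22.8% rose with RG. With LGG 16.5% of all genes tested fell and 54.7% rose. Of the 24 complex I members 10 fell and 0 rose with RG, and with LGG 14 fell and 3 rose. The 3 that rose were Ndufs1, the largest iron-sulfur subunit of the catalytic arm (chromosome 1, 63143596 to 63176833, minus strand, GRCm38), Ndufv1, the flavoprotein that receives electrons from NADH (chromosome 19, 4007384 to 4012806, minus strand), and Ndufa10, an accessory subunit of the membrane arm, which was named after its values were seen. Ndufs1 had 22.8, 42.2, 28.9, 25.4 and 26.8 TPM in RG mice, 51.3, 48.2, 54.0, 105 and 70.9 TPM in LGG mice and 23.4, 21.4, 14.3, 19.8 and 15.3 TPM in PBS mice. Every LGG mouse stood above every other mouse, and the log2 difference was 1.71 (SE 0.22, adjusted p = 2.53e-06) for LGG against PBS and 0.60 (SE 0.22, adjusted p = 0.0513) for RG against PBS. Ndufv1 had 74.7, 135, 116, 65.0 and 49.9 TPM in RG mice, 149, 176, 167, 264 and 199 TPM in LGG mice and 70.7, 75.5, 43.6, 68.3 and 57.0 TPM in PBS mice. Its LGG values were also all above the rest, with a difference from PBS of 1.58 (SE 0.25, adjusted p = 1.90e-05), whereas RG mice 1, 4 and 5 lay within the PBS range and RG did not pass (0.41, adjusted p = 0.185). Ndufa10 averaged 55.1 ± 20.7 TPM in RG mice, 109 ± 35.7 TPM in LGG mice and 44.1 ± 8.16 TPM in PBS mice (SD, n = 5 each) and differed by 1.25 (SE 0.24, adjusted p = 1.49e-04) with LGG. Under median-of-ratios and upper-quartile scaling its difference was 0.40 and 0.29 and no longer passed.

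Many small accessory subunits of complex I were among those that fell. Ndufb6, a membrane arm subunit (chromosome 4, 40270591 to 40279421, minus strand), had 357, 258, 328, 471 and 302 TPM in RG mice, 283, 301, 259, 271 and 286 TPM in LGG mice and 655, 433, 549.5, 524 and 488 TPM in PBS mice. The highest LGG mouse was below the lowest PBS mouse, while RG mouse 4 lay inside the PBS range. The difference was -0.64 (SE 0.15, adjusted p = 0.0225) with RG and -0.91 (SE 0.15, adjusted p = 4.37e-05) with LGG. Ndufa1, an X-linked accessory subunit needed to assemble the complex (chromosome X, 37187588 to 37191163, minus strand), had 466, 435, 549, 508 and 338 TPM in RG mice, 439.9, 485, 444, 512 and 459 TPM in LGG mice and 796, 569, 610, 684 and 672 TPM in PBS mice. Neither the RG nor the LGG mice overlapped the PBS mice, and the difference was -0.55 (SE 0.14, adjusted p = 0.0247) with RG and -0.50 (SE 0.14, adjusted p = 0.00361) with LGG. The lower levels were not limited to accessory subunits, since Ndufv2, an iron-sulfur subunit that partners Ndufv1 in the catalytic arm, fell in both, with a log2 difference of -0.47 (SE 0.14, adjusted p = 0.0319) with RG and -0.46 (SE 0.14, adjusted p = 0.00693) with LGG. It averaged 186 ± 37.8 TPM in RG mice, 184 ± 8.55 TPM in LGG mice and 254 ± 24.9 TPM in PBS mice (SD, n = 5 each) and was singled out after its values were seen, as were Ndufb1-ps and Ndufv3. Ndufb1-ps, which the annotation lists as a noncoding RNA from a bidirectional promoter, had the largest fall of the complex I names with LGG, at -1.34 (SE 0.25, adjusted p = 9.52e-05). The 7 complex I members without a call with LGG lay between -0.28 for Ndufa11, which was likewise named after its values were seen, and 0.01 for Ndufv3.

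Complex II, which oxidizes succinate and also serves the tricarboxylic acid cycle, was represented by its flavoprotein Sdha (chromosome 13, 74322254 to 74350280, minus strand). Sdhb, Sdhc and Sdhd were not analysed here. Sdha had 80.4, 179, 117, 92.8 and 84.5 TPM in RG mice, 195, 211, 236, 419 and 239 TPM in LGG mice and 94.6, 74.4, 50.2, 91.8 and 71.4 TPM in PBS mice. LGG mouse 4 was highest, but the lowest LGG mouse was still above the highest RG and PBS mice. The difference was 1.73 (SE 0.25, adjusted p = 7.53e-06) for LGG against PBS, and RG did not pass (0.50, adjusted p = 0.113).

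Complex III passes electrons from ubiquinol to cytochrome c. Of its 6 nuclear members 3 fell with RG and 0 rose, and with LGG 3 fell and 1 rose. The member that rose was Uqcrc1, the larger of the matrix-side core proteins (chromosome 9, 108936633 to 108949623, plus strand). It had 168, 270.4, 256, 130.1 and 99.0 TPM in RG mice, 314, 387, 319, 502 and 373 TPM in LGG mice and 139, 155, 96.1, 130.4 and 122 TPM in PBS mice. Its LGG mice did not overlap either other group, and the difference was 1.55 (SE 0.24, adjusted p = 2.09e-05) with LGG and 0.43 (SE 0.24, adjusted p = 0.157) with RG. Uqcr10, one of the smallest subunits, had 1235, 748, 1022, 1715 and 1038 TPM in RG mice, 919, 938, 929, 988 and 987 TPM in LGG mice and 2074, 1395, 1933, 1520 and 1646 TPM in PBS mice. The LGG mice lay within a narrow band below all PBS mice, and RG mouse 4 lay inside the PBS range. The difference was -0.61 (SE 0.18, adjusted p = 0.0315) with RG and -0.83 (SE 0.18, adjusted p = 4.93e-04) with LGG. Uqcrq, another small subunit, had 454, 299.8, 428, 511 and 248 TPM in RG mice, 407, 415, 426, 362 and 414 TPM in LGG mice and 645, 536, 579.7, 512 and 538 TPM in PBS mice. Both colonized groups were below all PBS mice, and the difference was -0.58 (SE 0.17, adjusted p = 0.0313) with RG and -0.47 (SE 0.17, adjusted p = 0.0209) with LGG. The LGG call was lost without PBS mouse 1 (adjusted p = 0.0544). Uqcrh, the hinge protein that meets cytochrome c, had 1828, 1058, 1477, 2566 and 1668 TPM in RG mice, 1413, 1510, 1423, 1056 and 1377 TPM in LGG mice and 2562, 1990, 2417, 2141 and 2188 TPM in PBS mice. It fell with LGG, with a difference of -0.74 (SE 0.19, adjusted p = 0.0019). With RG its difference was -0.45 without passing (adjusted p = 0.0747).

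Complex IV reduces oxygen to water, and its 10 nuclear subunits were the group with no member above 0 in either contrast with PBS. With RG 5 fell and with LGG 8 fell. Cox4i1, the widely expressed isoform of the largest nuclear subunit, had the highest mean TPM of the nuclear members in each group, with 3113, 2159, 3040, 3251 and 1729 TPM in RG mice, 2680, 3050, 2490, 2653 and 2589 TPM in LGG mice and 4660, 3549, 4045, 3941 and 4158 TPM in PBS mice. Both colonized groups lay below all PBS mice, with a difference of -0.65 (SE 0.17, adjusted p = 0.0247) with RG and -0.59 (SE 0.17, adjusted p = 0.00395) with LGG. Cox7c, a small structural subunit (chromosome 13, 86044816 to 86046904, minus strand), had 744, 443, 622, 942 and 798 TPM in RG mice, 573, 582, 576, 532 and 576 TPM in LGG mice and 1207, 812, 1060, 965 and 998 TPM in PBS mice. The LGG mice were tightly grouped below all PBS mice, and the difference was -0.82 (SE 0.17, adjusted p = 3.56e-04) with LGG and -0.54 (SE 0.17, adjusted p = 0.037) with RG. Ndufa4, once assigned to complex I and now counted with complex IV (chromosome 6, 11900292 to 11907497, minus strand), had 1310, 706, 1084, 1871 and 1682 TPM in RG mice, 962, 1088, 642, 470.3 and 904 TPM in LGG mice and 1953, 1712, 2136, 1785 and 1904 TPM in PBS mice. LGG mice 3 and 4 were lowest, the difference from PBS was -1.28 (SE 0.25, adjusted p = 1.98e-04), and RG mouse 4 lay within the PBS range (-0.59 with RG, adjusted p = 0.0781).

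Among the complex IV subunits that have isoforms, the widely expressed Cox7a2 had 980.4, 572, 822, 1301 and 1353 TPM in RG mice, 707, 787, 689.8, 669 and 709 TPM in LGG mice and 1736, 1130, 1534, 1389 and 1400 TPM in PBS mice. It fell with both, and the difference was -0.57 (SE 0.20, adjusted p = 0.0458) with RG and -1.0 (SE 0.20, adjusted p = 2.09e-04) with LGG. Cox7a2l, a protein related to Cox7a2, had 454, 451, 442, 404 and 374 TPM in RG mice, 386, 395, 355, 337 and 368 TPM in LGG mice and 515, 483, 574, 549 and 558 TPM in PBS mice. All RG and all LGG mice were below all PBS mice, and the difference was -0.34 (SE 0.11, adjusted p = 0.0374) with RG and -0.54 (SE 0.11, adjusted p = 2.03e-04) with LGG. Cox7a1, the heart and muscle isoform, had 358, 111, 254, 416 and 536 TPM in RG mice, 320, 387, 381, 176 and 301 TPM in LGG mice and 492, 417, 436, 298 and 366 TPM in PBS mice. The groups overlapped and neither difference passed (-0.42 with RG and -0.39 with LGG, adjusted p = 0.307 and 0.309). Cox8b, another isoform of heart, skeletal muscle and brown fat, was low at 10.3, 29.4, 14.1, 12.1 and 3.69 TPM in RG mice, 12.8, 3.06, 13.8, 15.02 and 14.2 TPM in LGG mice and 28.1, 16.2, 34.1, 35.1 and 13.0 TPM in PBS mice. It was called lower with LGG, with a difference of -1.09 (SE 0.47, adjusted p = 0.0475), although 1 PBS mouse lay inside the LGG range. That call was lost with a pseudocount of 0.1 (adjusted p = 0.0579), under the replicate block (0.065) and without any 1 of 6 mice (PBS mice 1, 3 and 4, RG mice 1 and 4 and LGG mouse 2), with an adjusted p of up to 0.135. With RG its difference was -0.96 without passing (adjusted p = 0.11).

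The Cox pattern also took in 6 factors that help to build complex IV, and with LGG these split into 2 that rose and 4 that fell, while with RG 1 fell, Cox14. Both that rose make heme A, the cofactor of the catalytic core. Cox10, which adds the farnesyl tail to heme, had 4.29, 10.2, 6.47, 4.42 and 3.69 TPM in RG mice, 8.18, 8.39, 8.60, 26.4 and 12.9 TPM in LGG mice and 6.04, 4.54, 3.07, 5.29 and 3.99 TPM in PBS mice. Cox15, which completes heme A, had 6.56, 11.9, 9.25, 6.30 and 8.10 TPM in RG mice, 14.1, 16.1, 14.5, 27.9 and 17.4 TPM in LGG mice and 6.98, 5.38, 4.14, 6.28 and 5.28 TPM in PBS mice. In LGG mouse 4 both stood far above the other LGG mice, and the difference from PBS was 1.20 (SE 0.30, adjusted p = 0.00166) for Cox10 and 1.49 (SE 0.20, adjusted p = 4.54e-06) for Cox15. Under median-of-ratios and upper-quartile scaling Cox10 was at 0.45 and 0.35 with LGG and no longer passed. Cox16, known from human cells to help mature the second core subunit, had 34.8, 21.9, 28.8, 43.4 and 48.7 TPM in RG mice, 22.5, 24.1, 20.8, 20.5 and 26.9 TPM in LGG mice and 54.0, 38.2, 53.8, 47.2 and 48.7 TPM in PBS mice. All LGG mice were below all PBS mice, with a difference of -1.04 (SE 0.18, adjusted p = 6.94e-05), and RG did not pass (-0.48, adjusted p = 0.0587). Cox14, which holds the first core subunit during its synthesis, had 124, 91.9, 114, 142 and 84.0 TPM in RG mice, 111, 105, 109.6, 113 and 125 TPM in LGG mice and 173, 131, 162, 136 and 138 TPM in PBS mice. The difference was -0.43 (SE 0.15, adjusted p = 0.0443) with RG and -0.38 (SE 0.15, adjusted p = 0.028) with LGG, and the LGG call was lost without PBS mouse 1 or 3 or LGG mouse 2 or 3 (adjusted p of 0.0528 to 0.0787). The copper chaperone Cox17 (-0.50) and its relative Cox19 (-0.43), both named after their values were seen, also fell with LGG.

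The ATP synthase, like complexes I and III, held members that rose with LGG and members that fell. Of all genes tested 54.7% rose and 16.5% fell with LGG, and 22.8% rose and 4.08% fell with RG. Of the 11 nuclear members of the ATP synthase 2 rose and 8 fell with LGG, and with RG 0 rose and 3 fell. The 2 that rose encode the alternating subunits of the catalytic head, alpha (Atp5a1) and beta (Atp5b, chromosome 10, 128083273 to 128090391, plus strand). Atp5a1 had 314, 600, 506, 297 and 241 TPM in RG mice, 692, 839, 749, 1299 and 858 TPM in LGG mice and 354, 333, 196, 300.2 and 253 TPM in PBS mice. Atp5b had 928, 1492, 1399, 715 and 529.7 TPM in RG mice, 1766, 2136, 1827, 2482 and 2133 TPM in LGG mice and 799, 924, 524, 718 and 652 TPM in PBS mice. For both, every LGG mouse exceeded every RG and PBS mouse, and the differences from PBS were 1.62 (SE 0.25, adjusted p = 1.55e-05) for Atp5a1 and 1.53 (SE 0.25, adjusted p = 2.57e-05) for Atp5b. RG mice 2 and 3 were well above all PBS mice for both genes and RG mice 4 and 5 were within the PBS range, and neither gene passed with RG (0.39 for Atp5a1 and 0.40 for Atp5b, adjusted p = 0.202 and 0.188). Atp5e, the epsilon subunit of the stalk under the same head, had 2544, 1490, 2043, 3742 and 3265 TPM in RG mice, 1684, 1798, 1659, 1083 and 1539 TPM in LGG mice and 4758, 2859, 4459, 3626 and 4022 TPM in PBS mice. The difference was -0.64 (SE 0.23, adjusted p = 0.0482) with RG and -1.34 (SE 0.23, adjusted p = 4.61e-05) with LGG, and, like Atp5mpl, a small proteolipid of the membrane sector, it was singled out after its values were seen. Atp5mpl fell with LGG, with a difference of -1.20 (SE 0.24, adjusted p = 2.21e-04), and averaged 668 ± 298 TPM in RG mice, 407 ± 10.6 TPM in LGG mice and 949.5 ± 169 TPM in PBS mice (SD, n = 5 each). Atp5k, subunit e of the membrane sector (chromosome 5, 108433244 to 108434448, minus strand), had 990.5, 621, 851, 1236 and 1081 TPM in RG mice, 783, 903, 833, 815 and 858 TPM in LGG mice and 1662, 1189, 1466, 1281 and 1303 TPM in PBS mice. Its difference was -0.56 (SE 0.16, adjusted p = 0.0307) with RG and -0.71 (SE 0.16, adjusted p = 7.93e-04) with LGG. Atp5h, subunit d of the outer stalk, had 709, 592, 735, 730.2 and 516 TPM in RG mice, 652, 768, 640.2, 646 and 672 TPM in LGG mice and 953, 831, 896, 811 and 867 TPM in PBS mice. All RG and all LGG mice were below all PBS mice, with a difference of -0.42 (SE 0.12, adjusted p = 0.0308) with RG and -0.37 (SE 0.12, adjusted p = 0.0131) with LGG.

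**Figure D2:**
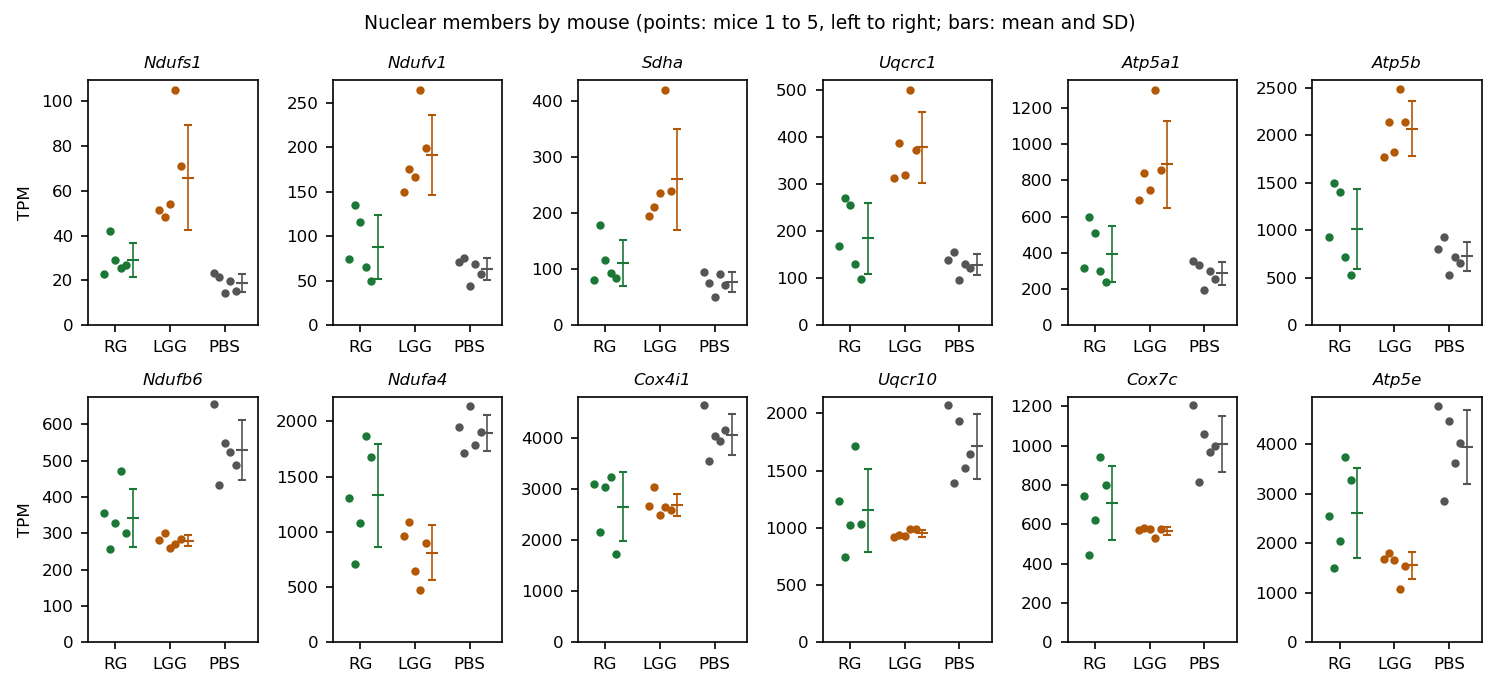
TPM (vertical axis, from 0 and scaled per gene) of 12 nuclear members in each mouse by group, with points for mice 1 to 5 from left to right and a bar for the mean and SD of 5 mice. In the upper row (Ndufs1, Ndufv1, Sdha, Uqcrc1, Atp5a1, Atp5b) all LGG mice lie above the RG and PBS mice, and in the lower row (Ndufb6, Ndufa4, Cox4i1, Uqcr10, Cox7c, Atp5e) all LGG mice lie below the PBS mice.

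Promoter sequence was set beside these groups because motifs of NRF1, of ETS factors, of the estrogen-related receptors (ERR) and of YY1 are known from the promoters of nuclear respiratory genes. Of the 58 nuclear members 46 matched a promoter window in RefSeq (GRCm38.p6), which runs from 250 bases before to 50 bases after the annotated start. The NRF1 motif GCGCATGCG was found on either strand in 5 of the 46 windows (10.9%), against 1.81% of all 27025 promoters, and its shorter core CGCATGCG, which lies within it, in the same number of member windows (10.9%, against 1.91%). The ETS motif CCGGAAG occurred in 12 (26.1%, against 9.12%) and the YY1 motif AAGATGGC in 7 (15.2%, against 2.88%), with 1 member holding both and no overlap of the 2 sites. The ERR motif TCAAGGTCA was in 0 of the 46 windows, against 0.41% of all promoters. Among the 7 matched members that rose with LGG, 1 held the NRF1 motif, 2 the ETS motif and 1 the YY1 motif, and among the 30 matched members that fell these numbers were 2, 9 and 5. Windows of 3 genes are shown, 5′ to 3′ on the gene's strand, with motif matches on either strand in capitals, to set 2 genes that rose beside 1 that fell: Uqcrc1 at chr9:108936398-108936697 on the plus strand with an NRF1 site, Cox10 at chr11:64079423-64079722 on the minus strand with an ETS and a YY1 site, and Atp5k at chr5:108434350-108434649 on the minus strand with an NRF1 site and an ETS site read on the other strand.
Uqcrc1: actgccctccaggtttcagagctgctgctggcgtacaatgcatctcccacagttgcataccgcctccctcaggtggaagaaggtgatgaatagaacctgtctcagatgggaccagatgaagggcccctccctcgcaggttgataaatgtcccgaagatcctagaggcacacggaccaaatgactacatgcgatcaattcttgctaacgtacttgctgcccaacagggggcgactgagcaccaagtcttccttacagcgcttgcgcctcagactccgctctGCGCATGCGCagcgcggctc
Cox10: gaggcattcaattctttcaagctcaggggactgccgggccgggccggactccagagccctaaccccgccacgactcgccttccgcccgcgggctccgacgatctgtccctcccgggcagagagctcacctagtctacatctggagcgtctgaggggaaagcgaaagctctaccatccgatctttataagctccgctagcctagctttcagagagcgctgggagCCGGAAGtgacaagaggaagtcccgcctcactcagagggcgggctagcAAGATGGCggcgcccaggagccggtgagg
Atp5k: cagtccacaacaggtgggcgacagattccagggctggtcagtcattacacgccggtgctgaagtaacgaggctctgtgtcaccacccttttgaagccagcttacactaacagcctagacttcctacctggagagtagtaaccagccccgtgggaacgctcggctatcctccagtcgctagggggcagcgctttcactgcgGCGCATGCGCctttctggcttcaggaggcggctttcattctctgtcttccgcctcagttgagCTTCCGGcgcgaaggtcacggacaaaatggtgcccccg
The same capitalized NRF1 match stands in the promoter of Uqcrc1, which rose with LGG, and of Atp5k, which fell.

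The members that rose with LGG and those that fell differed in coding length, a property the naming rule did not use. Coding length, taken from GENCODE mouse release 21, was known for 57 of the nuclear members. The 9 members that rose with LGG had coding lengths of 1065 to 2181 nucleotides, and the 36 that fell and had one were between 156 and 744 nucleotides. A boundary of 1000 nucleotides was set after the data were seen. Of the 47 nuclear members below it, 0 rose and 36 fell with LGG (median -0.59), and 0 rose and 22 fell with RG (median -0.48). Of the 10 at or above it, 9 rose and 0 fell with LGG (median 1.54) and none passed with RG (median 0.41), with Ndufv3 at 1404 nucleotides the exception with LGG (0.01). Genes outside the respiratory chain were arranged likewise. Of the 1286 others below the boundary 19.4% rose and 38.6% fell with LGG (median -0.32), and of the 2168 others above it 77.1% rose and 2.17% fell (median 1.32). With RG the same classes had 6.07% higher and 9.18% lower (median -0.22), and 33.5% higher and 0.138% lower (median 0.47). With LGG few of all genes tested had a difference from 0 to 0.5 (3.12%) or from 0.5 to 1 (2.38%). The counts that rose with LGG, of members and of others, thus depend on which genes were listed, by a rule not given here. Across genes, which are not independent and here share the same 10 libraries, coding length had a Spearman correlation with the LGG effect of 0.62 over 57 nuclear members and 0.53 over 3454 other genes. For RG these were 0.56 and 0.54. When a smooth trend of each library's values on transcript length and GC content was removed before the test, 23 nuclear members were higher and 10 lower with LGG, and with RG 0 were higher and 1 lower. With LGG the differences of Atp5k, Atp5h, Ndufa1, Uqcr10, Uqcrh, Cox7c, Cox8b, Cox14 and Atp5mpl then turned positive, between 0.0022 for Cox14 and 0.78 for Ndufa1, and those of Cox10 and Ndufv3 turned negative, at -0.089 and -0.70. Several of the small subunits have processed pseudogenes, and how reads shared with them were assigned is not given in the sources used here.

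**Figure D3:**
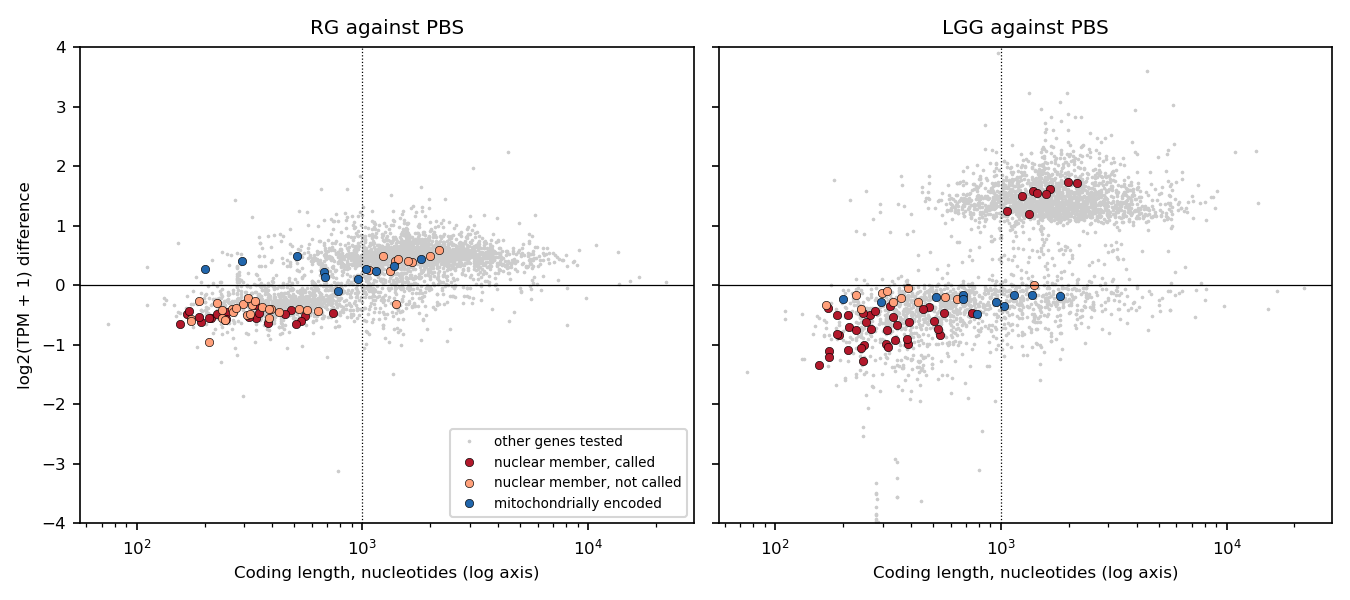
Log2(TPM + 1) difference (vertical axis) against coding length in nucleotides (log axis) for RG against PBS (left) and LGG against PBS (right), with nuclear members that passed the test in dark red, those that did not in light orange, mitochondrially encoded members in blue and other genes in grey; the dotted line stands at 1000 nucleotides. With LGG the 9 members that rose lie to the right of the line among other genes above 1, and few genes of any kind lie between 0 and 1.

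Within the RG group the mice differed along the same line. RG mouse 2 was the highest RG mouse for 9 of the 10 long nuclear members and the lowest for 29 of the 47 short ones, whereas RG mouse 5 was lowest for 7 of the 10 long members and 18 of the 47 short ones. The long members made up 5.46, 12.9, 8.98, 3.79 and 3.82% of the nuclear members' TPM in RG mice, 12.3, 13.4, 13.3, 19.8 and 14.5% in LGG mice and 3.52, 4.87, 2.42, 3.87 and 3.26% in PBS mice. RG mouse 2 thus lay within the LGG range, RG mice 1 and 3 between the PBS and LGG ranges, and RG mice 4 and 5 within the PBS range. In LGG mouse 4 all 10 long members had their highest LGG value. PBS mouse 1, the library with the highest liver and smooth muscle markers, was the highest PBS mouse for 35 of the 47 short members and 6 of the 10 long ones. The count of nuclear members lower with RG, 22 with all mice, depended on single mice, and so did the RG calls of members named above. Omitting RG mouse 2, 3 or 4 gave counts of 1, 5 and 40, and omitting PBS mouse 1, 3, 4 or 5 gave counts of 4, 0, 13 and 1. It was also 4 with the LGG mice left out of the fit and 42 under median-of-ratios scaling.

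Between the colonized groups, 5 nuclear members were higher and 9 lower in RG than in LGG, where 8.19% and 53.5% of all genes tested were higher and lower. The 9 lower were Ndufs1 (-1.12), Ndufv1 (-1.17), Ndufa10 (-0.99), Sdha (-1.23), Uqcrc1 (-1.11), Cox10 (-0.96), Cox15 (-1.0), Atp5a1 (-1.23) and Atp5b (-1.13). The 5 higher were Ndufb1-ps (0.87, adjusted p = 0.00528), Atp5e (0.70, adjusted p = 0.0138), Ndufa4 (0.69, adjusted p = 0.0252), Atp5mpl (0.59, adjusted p = 0.0412) and Cox16 (0.56, adjusted p = 0.0142). The other 44 did not pass, and the median over the nuclear members was 0.02, beside -0.72 over all genes tested. Over all 4178 listed genes, without the filter on low values, the median was -0.21. Without RG mouse 2 the number higher in RG was 18, and under median-of-ratios scaling it was 34 with 7 lower.

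None of the 11 mitochondrially encoded transcripts passed the test in any of the 3 comparisons, and at an unadjusted p under 0.05 the count was 0 for both contrasts with PBS and 3 between RG and LGG. Their median difference from PBS was 0.28 with RG (lowest adjusted p = 0.212) and -0.23 with LGG (lowest adjusted p = 0.0698), and RG differed from LGG by a median of 0.49 (lowest adjusted p = 0.0556). Without RG mouse 5 the medians were -0.0078 for RG against PBS and 0.20 for RG against LGG, so that the sign for RG against PBS rested on that mouse, and without PBS mouse 4 or 5 the median for LGG against PBS was -0.11 or -0.32. Of the subunits of complex IV, which form its catalytic core, mt-Co3 had 13630, 10140, 10580, 17150 and 28120 TPM in RG mice, 11490, 11480, 12780, 11370 and 9708 TPM in LGG mice and 15040, 14430, 15130, 20730 and 14430 TPM in PBS mice. All LGG mice lay below all PBS mice, with a difference of -0.48 (SE 0.23, adjusted p = 0.0698) that did not pass. mt-Co2 had 12880, 9295, 10240, 17550 and 30210 TPM in RG mice, 11370, 10810, 12640, 12080 and 9531 TPM in LGG mice and 11730, 13450, 13830, 17810 and 10270 TPM in PBS mice. RG mouse 5 was far above every other mouse for both. The ATP synthase subunits of the membrane sector are encoded side by side and overlap by 43 bases. mt-Atp6 had 12240, 8980, 9591, 17400 and 32620 TPM in RG mice, 10940, 9922, 12150, 12270 and 9698 TPM in LGG mice and 10540, 12660, 13410, 16210 and 9514 TPM in PBS mice. mt-Atp8 had 7781, 5756, 6275, 10970 and 21510 TPM in RG mice, 7012, 5248, 7043, 7657 and 5743 TPM in LGG mice and 6249, 7936, 8725, 10020 and 5848 TPM in PBS mice. Again RG mouse 5 was highest and the groups overlapped. mt-Cytb, the only mitochondrially encoded subunit of complex III, had 7496, 5910, 6317, 10880 and 17200 TPM in RG mice, 7189, 5401, 7666, 7190 and 6314 TPM in LGG mice and 6532, 7608, 7887, 10740 and 5519 TPM in PBS mice. Its differences were 0.23 with RG and -0.16 with LGG.

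The 6 listed mitochondrial subunits of complex I, which form its proton-pumping arm, had lower mean TPM, a level per length, than mt-Cytb in each group. mt-Nd1 had 5093, 3687, 3692, 7036 and 11600 TPM in RG mice, 4736, 4096, 4762, 4385 and 3670 TPM in LGG mice and 4566, 5176, 5607, 7245 and 4151 TPM in PBS mice. mt-Nd2 had 2621, 2197, 2057, 3735 and 6811 TPM in RG mice, 2355, 1774, 2332, 1865 and 1917 TPM in LGG mice and 2118, 2673, 2780, 3637 and 2001 TPM in PBS mice. RG mouse 5 was above every other mouse for both, and the other RG mice overlapped the PBS mice. mt-Nd4 had 4464, 3328, 3668, 6446 and 11960 TPM in RG mice, 4231, 3286, 4334, 3720 and 3442 TPM in LGG mice and 3365, 4423, 4565, 6192 and 3207 TPM in PBS mice. mt-Nd4l, which overlaps it by 7 bases, had 3386, 2531, 2741, 4748 and 8789 TPM in RG mice, 2904, 1850, 2735, 2729 and 2353 TPM in LGG mice and 2188, 3147, 3314, 4686 and 2288 TPM in PBS mice. RG mice 1, 4 and 5 exceeded every LGG mouse for both. mt-Nd5 had 2921, 2091, 2373, 4116 and 7521 TPM in RG mice, 2764, 1402, 2540, 2444 and 2139 TPM in LGG mice and 1947, 2642, 2807, 3774 and 1793 TPM in PBS mice. mt-Nd6, the one listed transcript of the opposite strand, which overlaps mt-Nd5 by 14 bases, had 2456, 1725, 1941, 3662 and 7528 TPM in RG mice, 2110, 1570, 2156, 1746 and 1644 TPM in LGG mice and 1719, 2281, 2304, 3015 and 1514 TPM in PBS mice. These 6 differed from PBS by 0.10 to 0.49 with RG and by -0.34 to -0.16 with LGG, and none of the differences passed. How reads in the overlaps, or reads shared with copies of mitochondrial DNA in the nuclear genome, were assigned is not given in the sources used here.

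**Figure D4:**
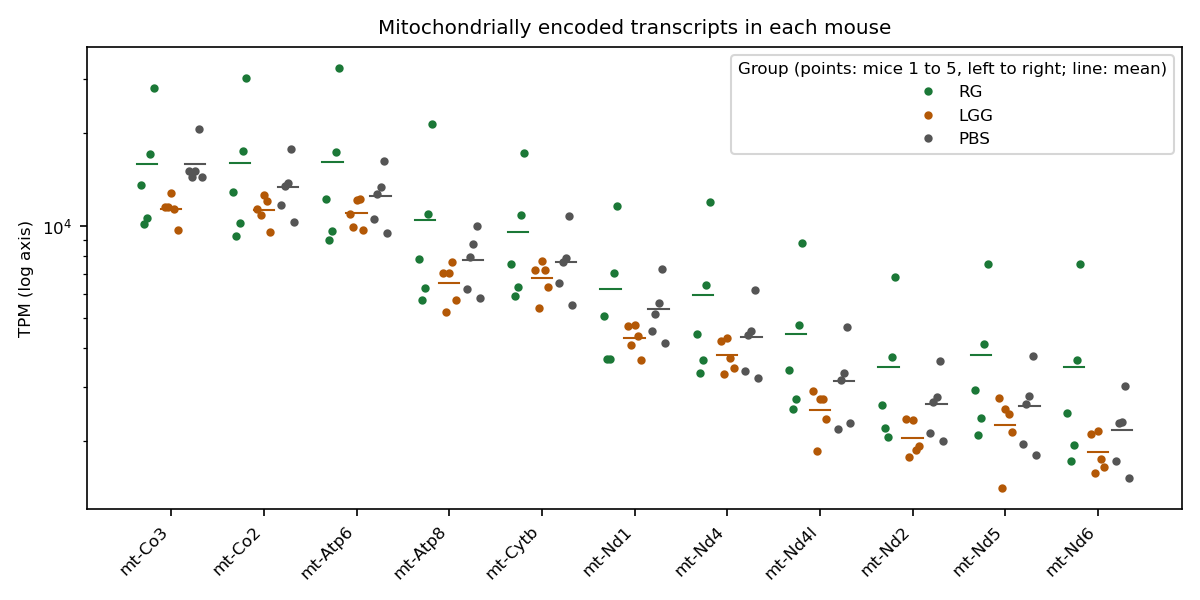
TPM (vertical log axis) of the 11 mitochondrially encoded transcripts in each RG, LGG and PBS mouse, with points for mice 1 to 5 from left to right and a line for the mean of 5 mice. RG mouse 5 is the highest point for every transcript, and the remaining RG mice overlap the LGG and PBS mice.

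In the RG and PBS groups the same mouse was highest for every mitochondrial transcript. RG mouse 5 was the highest RG mouse for 11 of 11 and RG mouse 2 the lowest for 10 of 11, and PBS mouse 4 was the highest PBS mouse for 11 of 11. In the LGG group the highest mouse was mouse 3 for 6 transcripts, mouse 1 for 3 and mouse 4 for 2, and the lowest was mouse 2 for 7 and mouse 5 for 4. Relative to the PBS mean of each transcript, the level in RG mouse 5 was 1.76 to 3.47 times as high (median 2.62), and in RG mouse 4 it was 1.08 to 1.69 times (median 1.42). RG mice 1, 2 and 3 had medians of 0.99, 0.77 and 0.81 times the PBS mean, LGG mice had medians of 0.72 to 0.94 times, and the PBS mice themselves had medians of 0.75 to 1.38 times. The median LGG difference stayed negative under the other scalings and turned positive only with the trend on length and GC content removed. All 11 were called lower with LGG under median-of-ratios scaling (median -1.10) and under upper-quartile scaling, and 10 were called higher once that trend was removed.

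Summed over the 11 transcripts, the mitochondrially encoded share of all TPM was 7.50, 5.56, 5.95, 10.4 and 18.4% in RG mice, 6.71, 5.68, 7.11, 6.75 and 5.62% in LGG mice and 6.60, 7.64, 8.04, 10.4 and 6.05% in PBS mice. The 58 nuclear members together held 3.15, 2.26, 2.88, 3.84 and 2.96% in RG mice, 2.73, 2.97, 2.67, 2.73 and 2.83% in LGG mice and 4.67, 3.55, 4.34, 3.83 and 3.97% in PBS mice. All LGG mice lay below all PBS mice in the nuclear share, and RG mouse 4 was the only RG mouse within the PBS range. The ratio of mitochondrial to nuclear TPM was 2.38, 2.46, 2.06, 2.70 and 6.20 in RG mice, 2.46, 1.91, 2.66, 2.47 and 1.98 in LGG mice and 1.41, 2.15, 1.85, 2.72 and 1.52 in PBS mice. RG mouse 5 thus stood apart in its mitochondrial transcripts and not in its nuclear share. It was also the library with the kidney genes Kap (8.21 TPM) and Umod (2.15 TPM), whose part in the mitochondrial level was not tested. The column label of RG mouse 5 alone named no lane, and that of PBS mouse 1 alone carried an added suffix. Sample numbers in these labels run group by group. What the marks mean is not given in the sources used here, and their part was not tested. Taking all 69 members, 22 fell and 0 rose with RG, and 37 fell and 9 rose with LGG, all of them nuclear.

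**Figure D5:**
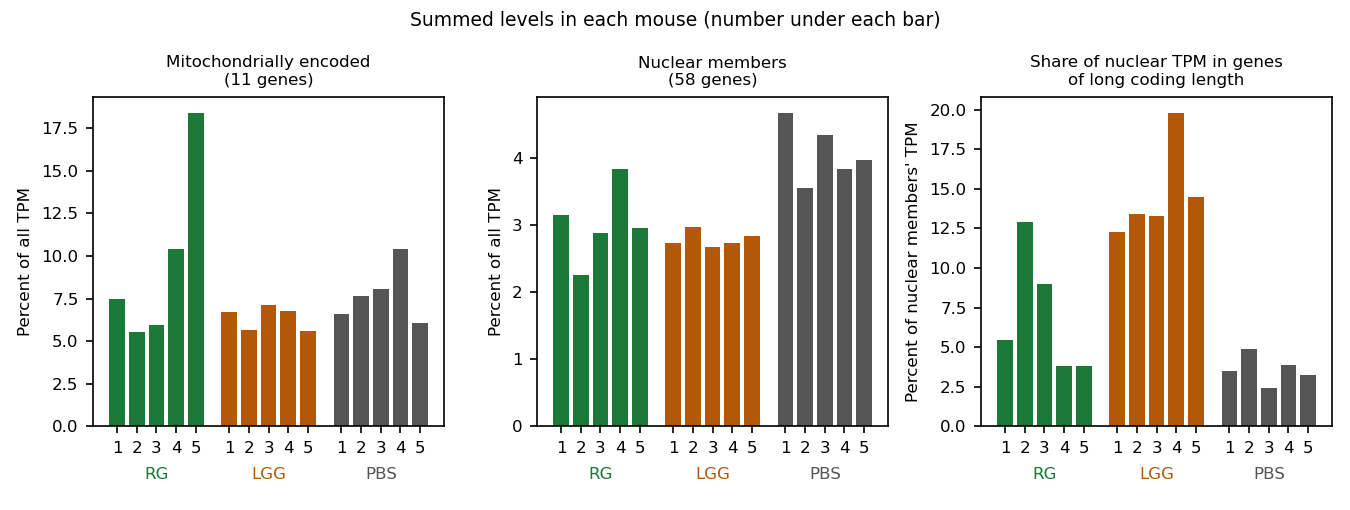
Summed levels in each mouse (numbers under the bars) by group: the 11 mitochondrially encoded transcripts and the 58 nuclear members as percent of all TPM, and the share of the nuclear members' TPM held by those with a coding length of 1000 nucleotides or more. RG mouse 5 stands at 18.4% in the left panel, and the LGG mice at 12.3 to 19.8% in the right panel, where PBS mice reach 4.87%.

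Other genes of energy metabolism were counted from lists, to be read against all genes tested. Of these, 54.7% rose and 16.5% fell with LGG (median 1.17) and 22.8% rose and 4.08% fell with RG (median 0.38). Over all listed genes, without the filter on low values, these medians were 0.48 and 0.32. Of the 20 genes for the tricarboxylic acid cycle and pyruvate entry, 11 were tested, of which 9 rose and 1 fell with LGG (median 1.44), and 4 rose and 1 fell with RG (median 0.46). Ogdh, of the 2-oxoglutarate dehydrogenase complex, averaged 104.6 ± 16.5 TPM in RG mice, 279.5 ± 34.2 TPM in LGG mice and 66.6 ± 10.6 TPM in PBS mice (SD, n = 5 each), and rose by 0.64 (SE 0.15, adjusted p = 0.0221) with RG and by 2.06 (SE 0.15, adjusted p = 3.33e-08) with LGG. Mpc2, a small subunit of the mitochondrial pyruvate carrier, fell with LGG (-0.69) and with RG (-0.52). Of 12 tested glycolysis genes, of 19 in the list, 12 rose with LGG (median 1.53) and 2 with RG (median 0.26), among them Pklr, a pyruvate kinase, which averaged 77.1 ± 17.4 TPM in RG mice, 167.6 ± 14.1 TPM in LGG mice and 47.4 ± 7.69 TPM in PBS mice. All 3 tested carriers and uncoupling genes rose with LGG and 1 with RG, that 1 being Ucp2, an inner membrane carrier of the uncoupling family (0.62 with RG and 1.57 with LGG). Of 6 tested electron donors to ubiquinone and antioxidant enzymes, 5 rose and 1 fell with LGG, and 2 rose with RG, with Gpd2, the mitochondrial glycerol phosphate dehydrogenase, at 1.66 and the small peroxidase Gpx4 at -0.46 with LGG. Only 4 of the 24 regulators of mitochondrial gene expression were listed, and these included both partners of the complex that stabilizes mitochondrial messenger RNA. Lrpprc, the large partner, was higher with LGG (1.22, SE 0.27, adjusted p = 5.81e-04), and Slirp, the small one, was lower with LGG (-0.91, SE 0.14, adjusted p = 1.91e-05) and with RG (-0.45, SE 0.14, adjusted p = 0.036). Their coding lengths are 4176 and 336 nucleotides.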

How the data were processed

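Ileal RNA of 15 mice (5 per group) was sequenced from NEBNext Ultra II libraries, per the labels' protocols, and the submitters' processing notes name GRCm38 (mm10). The aligner, the counter and the treatment of strand or multiply mapped reads were not given in the sources used here. What the authors deposited is a TPM table for 4178 genes, a part of those over which TPM was computed, and it holds no depth, so no counting error can be given. Here limma 3.58.1 in R 4.3.3 (trend and robust) was fitted to log2(TPM + 1) for genes with a TPM of at least 1 in 5 or more libraries (3530 tested, 648 not), with all 15 libraries in 1 model and Benjamini-Hochberg adjustment. The fit was checked on simulated data. Differences on this scale understate changes of low genes. The members and gene lists were chosen with earlier results of these data known. Named members are all mitochondrially encoded ones, the 2 of smallest p per complex and comparison, tissue-restricted isoforms and, of the lists, up to 2 of smallest p per direction and comparison. Others are said to be added after values were seen. Identifiers were matched to GENCODE mouse release 21 (4173 of 4178), and coding length is that of the principal transcript. Alternatives were other scalings, pseudocounts, filters and fits, removal of a length and GC trend (loess, span 0.5), a replicate block and omission of each mouse.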

Additional observations from a re-analysis of the deposited data

Results flagged for a closer look

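Among 135 sets of 5 mice, made of the named members and library sums in each group, 10 held a mouse whose gap to the nearest other mouse exceeded Dixon's critical value of 0.71 of the group's range. Chance flags about 1 in 20 such sets. LGG mouse 4 accounted for 6 of them. It was highest for Atp5a1 at 1299 TPM (next LGG mouse 858 TPM), Sdha at 418.6 TPM (next 239 TPM), Ndufa10 at 170.4 TPM (next 106.1 TPM), Cox15 at 27.9 TPM (next 17.4 TPM) and Cox10 at 26.4 TPM (next 12.9 TPM), and lowest for Cox7c at 532 TPM (next 573 TPM). Without that mouse, 9 nuclear members were still higher and 35 lower with LGG than with PBS. LGG mouse 2 was highest for Atp5h at 767.6 TPM (next 672.5 TPM) and lowest for Cox8b at 3.06 TPM (next 12.8 TPM). PBS mouse 4 was highest for mt-Co3 at 20730 TPM (next 15130 TPM). RG mouse 5 was highest for the ratio of mitochondrial to nuclear TPM, at 6.20 (next 2.70).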

How the results depend on the processing

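The counts of nuclear members that moved with LGG kept their direction and stayed within 1.5 times the reported values under every alternative except removal of the length and GC trend, with 7 to 9 higher and 34 to 49 lower, and leaving out single mice gave 9 higher throughout and 32 to 39 lower. Removal of that trend gave 23 higher and 10 lower. The count lower with RG was far less stable: 42 under median-of-ratios scaling, 4 with the compared groups alone, 1 with the trend removed and 0 with 3 mice omitted at once (RG 2, RG 5 and PBS 1, which had the highest T cell, kidney and liver markers), and 0 to 40 when single mice were left out. The count higher with RG was 1 with TPM rescaled without the mitochondrially encoded genes or with a pseudocount of 0.1, and 0 to 2 without single mice. Between RG and LGG, nuclear members higher in RG numbered 34 (median-of-ratios), 45 (upper-quartile), 3 (compared groups alone), 2 (trend removed), 21 (those 3 mice omitted) and 3 to 18 (single mice left out), and those lower in RG numbered 5 (upper-quartile) and 23 (trend removed). The cause of these shifts was not tested.

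Mitochondrially encoded members, of which none was called, became 11 lower with LGG under both scalings, 10 higher with the trend removed and 1 lower with the compared groups alone or with those 3 mice omitted, and 0 to 1 lower without single mice. With RG 2 became higher with the trend removed. Between RG and LGG 11 became higher in RG under both scalings, 0 to 6 without single mice, and 1 lower with the trend removed. Their mean share was 15.3% in RG mice, 12.8% in LGG mice and 12.2% in PBS mice when taken of the listed genes' TPM, against 9.56, 6.37 and 7.75% of all TPM.

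Directions turned mostly when the trend was removed. For LGG against PBS the differences became 0.76 (mt-Nd1), 0.73 (mt-Nd2), 0.997 (mt-Co2), 1.67 (mt-Atp8), 1.15 (mt-Atp6), 0.65 (mt-Co3), 1.39 (mt-Nd4l), 0.69 (mt-Nd4), 1.29 (mt-Nd6), 0.66 (mt-Cytb), 0.51 (Atp5k), 0.50 (Atp5h), 0.78 (Ndufa1), 0.14 (Uqcr10), 0.27 (Uqcrh), 0.0022 (Cox14), -0.089 (Cox10), 0.29 (Cox7c), 0.082 (Cox8b), 0.31 (Atp5mpl) and -0.70 (Ndufv3). For RG against PBS they became 0.034 (Atp5k), 0.015 (Atp5h) and 0.0099 (Ndufa1), and between RG and LGG -0.81 (mt-Atp8), -0.47 (Atp5k), -0.34 (Cox7c) and -0.33 (Atp5mpl). Under median-of-ratios and upper-quartile scaling Ndufv3 became -0.85 and -0.95 for LGG against PBS, and between RG and LGG the values became 0.47 and 0.64 (Atp5h), 0.48 and 0.64 (Ndufa1), 0.47 and 0.64 (Cox14) and 0.51 and 0.68 (Ndufv2). Upper-quartile scaling alone gave 0.58 (Uqcrq), 0.63 (Cox4i1) and 0.35 (Ndufv3) for RG against LGG.

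Mouse numbers recur in each group, but no label says that equal numbers share a litter or day, and the deviations of equally numbered mice correlated at -0.46 to 0.29. With the number as a replicate block the count lower with RG was 1. Depth is unknown, so detection limits cannot be given.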
